A study of Mus musculus with 6 samples.

Results

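The interferon response and antigen presentation genes are a module of 32 listed genes, taken by symbol and described across 6 single-cell RNA libraries of cultured mouse retina. The rule that took them was by symbol alone, but the list was drawn up with earlier results of these data known. Of the 32, 31 were rows of the 27998-gene count matrices, and Mx2 was not analysed here. The cultures were grown from papain-dissociated retinas with EGF and serum and were labelled as Müller glia, radial glia that span the retina. They were transfected with Lipofectamine, and each RNA was present at 500 nM. One library each received an antagomiR that blocks let-7 (the let-7 antagomiR), a miR-25 mimic, a miR-124 mimic, the let-7 antagomiR with the miR-25 mimic (the double combination), or all of these RNAs (the triple combination), and 1 library received control mimic and antagomiR RNAs. All 6 cultures were thus transfected, no library of untransfected cells was analysed, and the combinations received more RNA in all than the single RNAs. Strain, age, sex and the number of animals pooled are not given in the labels, and nothing in them says that the libraries came from separate animals. With 1 library per treatment, none of the differences below has a replicate check, and every interval is a 95% interval that covers counting error only.

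Interferons are secreted proteins that warn cells of viral infection. Type I interferons bind a receptor whose kinases activate STAT2, which acts with IRF9 on the interferon-stimulated response element (ISRE) of target promoters, and interferon gamma acts through another element called GAS. The genes switched on include sensors of foreign RNA, proteins that block viral entry or translation, and the machinery that cuts cytosolic proteins into peptides, pumps them into the endoplasmic reticulum and shows them to T cells on MHC class I molecules. In the retina, microglia and glia are known to take up this programme in inflammation and infection.

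The promoters of several members hold matches to patterns of these elements. The stretches are shown because the members described most below differ in the patterns they match, and a single pattern is marked per gene. The sequences are from RefSeq (GRCm38.p6), 5′ to 3′ along the gene, and capitals mark matches to GAAANNGAA, the core of the ISRE, in the first 4 and to GGGANNNCC, a pattern of NF-kB type, in the MHC heavy chain genes. They lie at chr4:156200861-156200911 on the minus strand (Isg15), chr8:71537573-71537617 minus (Bst2), chr19:34640765-34640828 plus (Ifit1), chr2:122147533-122147571 plus (B2m), chr17:34000434-34000488 minus (H2-K1) and chr17:35262893-35262947 plus (H2-D1).
Isg15: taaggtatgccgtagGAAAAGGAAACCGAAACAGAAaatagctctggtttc
Bst2: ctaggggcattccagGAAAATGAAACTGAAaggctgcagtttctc
Ifit1: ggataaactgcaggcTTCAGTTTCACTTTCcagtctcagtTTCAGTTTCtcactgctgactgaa
B2m: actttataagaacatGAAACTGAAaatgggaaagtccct
H2-K1: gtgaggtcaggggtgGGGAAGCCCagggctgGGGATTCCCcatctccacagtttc
H2-D1: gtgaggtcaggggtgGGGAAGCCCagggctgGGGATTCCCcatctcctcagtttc
The Isg15 and Ifit1 stretches hold 3 matches each, that of Bst2 holds 2 and that of B2m holds 1, overlapping matches included. The stretch of H2-K1 and that of H2-D1 were identical at 54 of 55 bases. Both strands were searched from 250 bases before to 50 bases after each start, in the 26 members with a promoter entry. GAAANNGAA was in 12 of the 26 (46.2%), in 11 of 20 interferon-response members (55%) and in 1 of the 6 antigen processing and MHC class I members (16.7%), against 9.76% of 27025 genes. TTCNNNGAA, the GAS pattern, was in 7 of the 26 (26.9%) against 9.55% of genes. GGGANNNCC was in 7 of the 26 (26.9%), against 20.7% of genes. It was in 5 of 20 interferon-response members (25.0%) and in 2 of the 6 antigen processing and MHC class I members (33.3%). Isg15 also matched GGGANNNCC, outside the stretch shown, and Bst2 also matched TTCNNNGAA, inside its stretch but not marked. These are matches of letters and not measured binding. A fixed pattern misses variants of an element, so a gene without a match may still hold that element.

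The 2 miRNAs whose mature sequence was in the RefSeq table (GRCm38.p6) are shown because their seeds, bases 2 to 8 in capitals, define the target sites searched in the members. The labels do not name the arm of the mimic, and miR-25-3p was assumed. They lie at chr13:48538239-48538260 (let-7a-5p, minus strand) and chr5:138165332-138165353 (miR-25-3p, minus strand).
let-7a-5p: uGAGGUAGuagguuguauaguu
miR-25-3p: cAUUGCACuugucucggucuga
Sites were CTACCTC or TACCTCA for let-7 and GTGCAAT or TGCAATA for miR-25, on the transcript strand of annotated 3′ UTRs. Of the 31 members, 3 held a let-7 site (Stat2, Oasl2 and Tap1), against 14.9% of 20605 genes, and 4 held a miR-25 site (Isg15, Ifit3, Mx1 and Ifih1), against 12.7% of genes. The windows of the members with a site that also passed the level filter given below are shown, with the site in capitals; Isg15 is on chromosome 4, Oasl2 on chromosome 5 and Tap1 on chromosome 17.
Isg15: aaaaaaagatgaTGCAATAaaaagctctgc
Oasl2: cttacgcctccCTACCTCAtccctagactc
Tap1: cggggtttcaggTACCTCAcaccaacactg
No match to either seed was found in the annotated 3′ UTRs of B2m, H2-K1, H2-D1, Bst2, Ifit1, Ifitm2 or Ifitm3. Sites of miR-124 were not searched.

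Site genes also served as the check of the labels, since no gene was knocked out. In Müller-like cells, after removing trends on UTR length, GC content and mean level, the 1217 genes with a let-7 site exceeded genes without one in log2 ratio to control by 0.062 after let-7 antagomiR and 0.080 in the double combination. They exceeded them by 0.079 in the miR-124-labelled library, whose label names no let-7 inhibitor, and by 0.000 in the triple-labelled library, whose label does. For the 1138 genes with a miR-25 site the differences were -0.098 after miR-25 mimic, -0.109 in the double combination and 0.034 in the triple-labelled library. Without the adjustment, which was chosen after seeing the data, the let-7 differences were 0.024 after let-7 antagomiR, 0.130 in the miR-124-labelled library, 0.003 in the double combination and 0.053 in the triple-labelled library, so the order of the libraries for let-7 rests on the adjustment. For miR-25 they were -0.112 after miR-25 mimic, -0.162 in the double combination and 0.067 in the triple-labelled library, with the same signs as after adjustment. Both libraries whose label includes miR-124 are therefore named only by their labels throughout.

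The matrices held 11804176 to 23124374 UMIs (unique RNA molecules counted) per library, that of the double combination being the part that could be read, and 2706 to 5048 cells per library were kept, with medians of 3451 to 5868 UMIs. Pairs of libraries shared 0.299% to 0.839% of the smaller library's barcodes. Cells were clustered together and named from marker genes. Müller-like cells made up 50.2% of kept cells after let-7 antagomiR, 58.9% after miR-25 mimic, 36.2% in the miR-124-labelled library, 50.6% in the double combination and 55.1% in the triple-labelled library, against 29.4% in the control, so much of each culture was not of the labelled type. All 20 Müller markers had a UMI in these cells in every library. So did all 7 markers of cycling cells, so detection in such large sums does not set the class apart. The class consisted of 3 clusters, and different clusters held most of it in different libraries. A cluster led by Rlbp1 took in 723 of 1246 Müller-like cells in the miR-124-labelled library and 1749 of 2242 in the triple-labelled library, against 10 of 1327 in the control and at most 30 in any of the other 3. The sums and several members of those 2 libraries are therefore also given within the clusters led by Grem1 and Chil1, which all libraries held; results on them given for the whole class alone carry that difference in mix.

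Levels are counts per 1000000 UMIs (CPM) summed over the Müller-like cells of a library, which come from transcript 3′ ends and are not scaled to gene length. Of the 31 measured members, 20 reached 20 CPM in at least 1 library and 11 did not (Ifit2, Ifit3, Stat2, Irf7, Ifitm1, Oasl1, Oas1a, Mx1, Ifih1, Dhx58 and Rsad2). Ratios of single members are plain ratios of CPM, and log2 ratios are of CPM + 5. A member is counted as higher or lower where that log2 ratio reached 1.5-fold, and each count of members stands beside the percentage of all 7124 genes at 20 CPM that did the same. A member that reached 20 CPM only in the library where it was high had to differ, so the counts describe the members and support nothing further.

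Summed over all members of each part, the module stood highest in Müller-like cells of the miR-25 mimic library. It stood lowest in those of the libraries labelled miR-124 mimic and triple combination. Without the Ifitm genes, Bst2 and Ifi27, the lowest interferon-response sum was instead that of let-7 antagomiR, as given below. The interferon-response members summed to 900 CPM after let-7 antagomiR, 1450 after miR-25 mimic, 610 in the miR-124-labelled library, 1112 in the double combination and 686 in the triple-labelled library, against 1128 in the control. The 6 antigen processing and MHC class I members summed to 2299 after let-7 antagomiR, 3636 after miR-25 mimic, 1524 in the miR-124-labelled library, 3429 in the double combination and 1176 in the triple-labelled library, against 2903 in the control. Both sums thus put miR-25 mimic highest and let-7 antagomiR below the control, while the double combination was above the control only in antigen presentation.

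**Figure D1:**
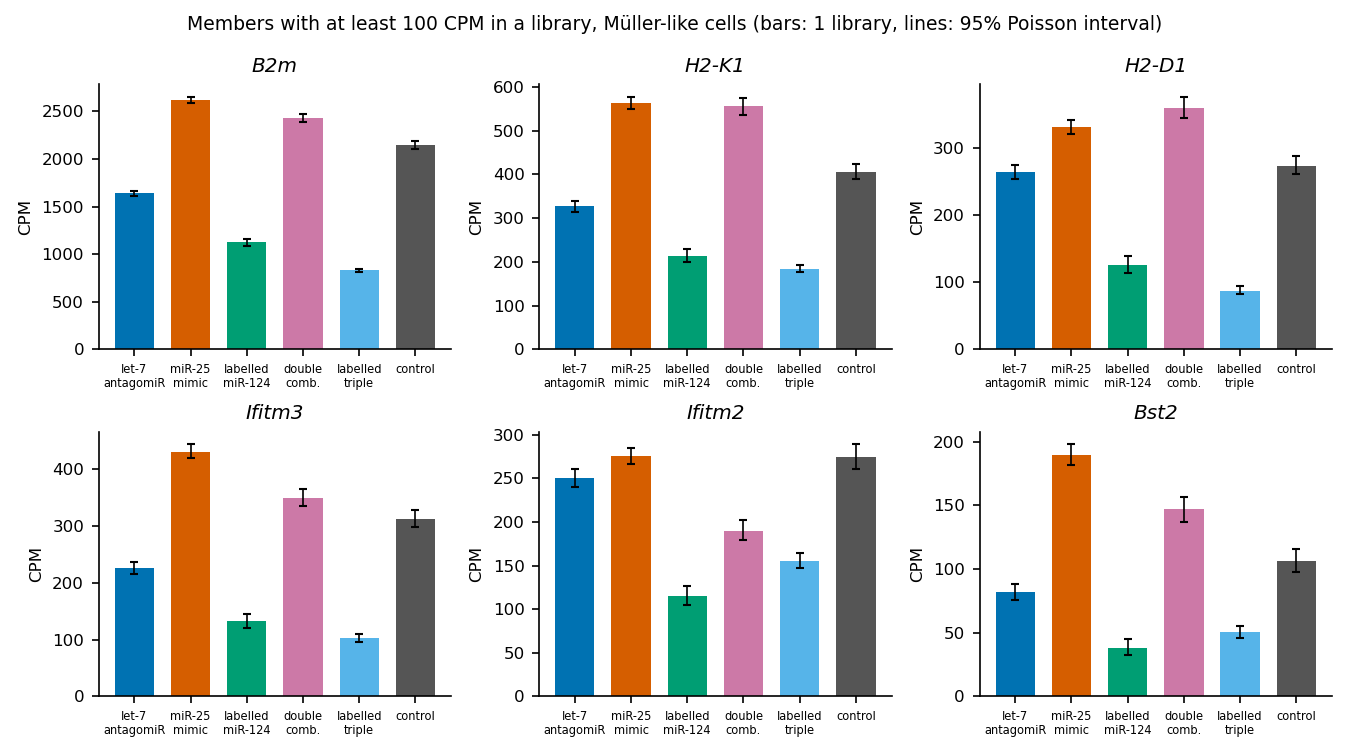
Level in CPM of the 6 members that reached 100 CPM in Müller-like cells of at least 1 library, with 1 bar per library and 95% Poisson intervals as lines (counting error only). All 6 had their 2 lowest bars in the libraries labelled miR-124 mimic and triple combination, and B2m ran from 829 to 2620 CPM.

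Antigen presentation was described first by its most abundant genes. B2m (chr2:122147686-122153083, plus strand), the light chain that every MHC class I molecule needs, stood at 1637 CPM after let-7 antagomiR, 2620 after miR-25 mimic, 1122 in the miR-124-labelled library, 2428 in the double combination and 829 in the triple-labelled library, against 2146 in the control. H2-K1 (chr17:33996017-34000347, minus strand), a classical MHC class I heavy chain, stood at 327 CPM after let-7 antagomiR, 563 after miR-25 mimic, 214 in the miR-124-labelled library, 556 in the double combination and 184 in the triple-labelled library, against 405 CPM in the control. H2-D1 (chr17:35262730-35267499, plus strand), another classical heavy chain, stood at 263 CPM after let-7 antagomiR, 331 after miR-25 mimic, 125 in the miR-124-labelled library, 359 in the double combination and 87.3 in the triple-labelled library, against 273 CPM in the control. The 3 genes thus shared an order in which the 2 libraries labelled with miR-124 were lowest and the 2 libraries with miR-25 and no miR-124 label were highest. The heavy chain genes are near-identical copies, so reads may have been split between them or lost, and the strain's alleles are not known.

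The genes that supply peptides did not all follow that order. Psmb8, a catalytic subunit that interferon puts into the proteasome, stood at 37.6 CPM after let-7 antagomiR, 67.4 after miR-25 mimic, 38.6 in the miR-124-labelled library, 47.3 in the double combination and 43.9 in the triple-labelled library, against 43.8 in the control. Psmb9, its partner subunit, stood at 17.7 CPM after let-7 antagomiR, 30.2 after miR-25 mimic, 15 in the miR-124-labelled library, 17.1 in the double combination and 19.9 in the triple-labelled library, against 18.2 CPM in the control. Both were highest after miR-25 mimic and neither was 1.5-fold lower in any library over the control. Tap1, a subunit of the transporter that moves peptides into the endoplasmic reticulum, stood at 16.6 CPM after let-7 antagomiR, 23.4 after miR-25 mimic, 8.90 in the miR-124-labelled library, 21.2 in the double combination and 11.2 in the triple-labelled library, against 16.6 CPM in the control, which is closer to the order of the MHC genes. The starts of Tap1 and Psmb9, which point away from each other on chromosome 17, lie 226 bases apart. The 14 constitutive proteasome subunits, which cells make without interferon, summed to 3120 CPM after let-7 antagomiR, 3243 after miR-25 mimic, 2700 in the miR-124-labelled library, 3814 in the double combination and 2404 in the triple-labelled library, against 2906 in the control. Their range was narrower than that of the antigen presentation sum, and they were highest in the double combination.

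Among the antiviral effectors, Bst2 (chr8:71534255-71537456, minus strand), a membrane protein that tethers budding virus, stood at 81.9 CPM after let-7 antagomiR, 190 after miR-25 mimic, 38.4 in the miR-124-labelled library, 147 in the double combination and 50.3 in the triple-labelled library, against 106 in the control. Ifitm3 (chr7:141009586-141010770, minus strand), which blocks entry of virus from endosomes, stood at 226 CPM after let-7 antagomiR, 431 after miR-25 mimic, 133 in the miR-124-labelled library, 350 in the double combination and 103 in the triple-labelled library, against 313 CPM in the control. Ifitm2 (chr7:140954837-140955987, minus strand), a close relative of it, stood at 250 CPM after let-7 antagomiR, 276 after miR-25 mimic, 115 in the miR-124-labelled library, 190 in the double combination and 155 in the triple-labelled library, against 275 CPM in the control. Bst2 and Ifitm3 were highest after miR-25 mimic, whereas Ifitm2 was within counting error of the control there and was lower in the double combination. Ifitm1 was at 0.221 to 0.784 CPM. The Ifitm genes are similar copies, so reads may have been split between them.

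Ifit1 (chr19:34640871-34650009, plus strand), which binds foreign RNA ends and blocks their translation, stood at 9.97 CPM after let-7 antagomiR, 36.7 after miR-25 mimic, 9.73 in the miR-124-labelled library, 28.0 in the double combination and 5.31 in the triple-labelled library, against 22.7 in the control, where 1 cell held 47 of its 123 UMIs. Rtp4, an interferon-induced chaperone-like protein, stood at 8.06 CPM after let-7 antagomiR, 22.9 after miR-25 mimic, 4.73 in the miR-124-labelled library, 17.1 in the double combination and 3.65 in the triple-labelled library, against 12 CPM in the control. Both had the order of Bst2 at a lower level, except that the triple-labelled library was below the miR-124-labelled one. Isg15 (chr4:156199424-156200818, minus strand), a ubiquitin-like protein joined to other proteins, stood at 8.17 CPM after let-7 antagomiR, 24.5 after miR-25 mimic, 5.56 in the miR-124-labelled library, 19.5 in the double combination and 5.97 in the triple-labelled library, against 11.4 CPM in the control. It had the order of Bst2, and its 3′ UTR holds the miR-25 site shown above. Usp18, the protease that removes ISG15 and dampens the interferon receptor, ran only between 8.40 CPM in the triple-labelled library and 20.6 CPM after miR-25 mimic, against 15.3 CPM in the control.

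Other effectors lay closer together. Ifi27 ran from 45.9 to 97.6 CPM, Ifi35 from 33.6 to 53.2 CPM, Oasl2 (an OAS-like antiviral protein) from 38.1 to 67.6 CPM and Xaf1 (an interferon-induced binder of XIAP) from 31.2 to 48.8 CPM over the 6 libraries. Each of these 4 was within 1.5-fold of the control in every library but for Ifi27 in the miR-124-labelled library. Of the RNA sensors, Ddx58 (RIG-I) ran from 25.0 to 40.4 CPM, Ifih1 (MDA5) from 11.8 to 18.2 CPM and Dhx58 (LGP2) from 1.11 to 4.30 CPM, and Ddx58, the one of them at 20 CPM, was within 1.5-fold of the control in every library. Ifit2, Ifit3 and Rsad2 (viperin) stayed at or below 19.2 CPM, and Mx1 had 3 UMIs in all, in the double combination. Oasl1 and Oas1a stayed below 1 CPM.

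The transcription factors of the pathway stood low. Irf9, the DNA-binding part of the type I complex, ran from 19.5 to 27.1 CPM, Irf7 from 6.4 to 16.8 CPM and Stat2 from 8.04 to 17.7 CPM. Irf1, which interferon gamma and stress induce, stood at 16.8 CPM after let-7 antagomiR, 24.8 after miR-25 mimic, 33.1 in the miR-124-labelled library, 16.8 in the double combination and 31.5 in the triple-labelled library, against 19.0 in the control. It was thus highest in the 2 libraries where the MHC class I genes were lowest. Of the 20 members, Irf1 alone was 1.5-fold higher in either of those libraries over the control.

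**Figure D2:**
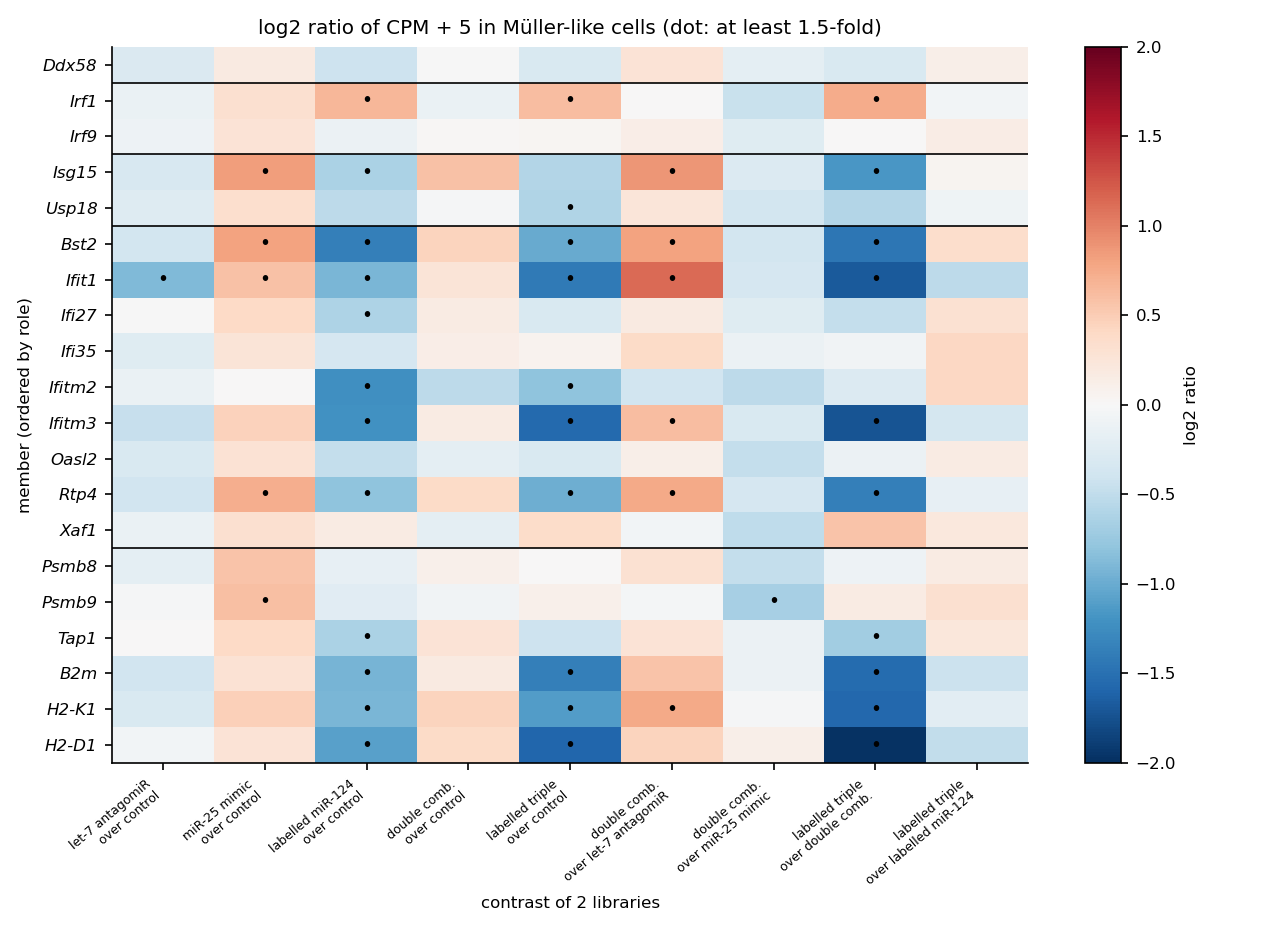
Log2 ratio of CPM + 5 of the 20 members that reached 20 CPM, by role from sensors at the top to antigen presentation at the bottom, in 9 contrasts of Müller-like cells. Dots mark at least 1.5-fold; the dots gather at Bst2, Ifit1, Ifitm3, Rtp4, B2m, H2-K1 and H2-D1 in the contrasts with a library labelled with miR-124, and Irf1 alone is red there with a dot.

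Adding miR-25 was read in a pair of contrasts that share no library. After miR-25 mimic over control, 5 of the 20 members were higher, where 1.45% of all genes were, and 0 were lower, where 0.955% of all genes were. The 5 were Bst2 (CPM ratio 1.78, 1.63 to 1.96), Isg15 (2.14, 1.62 to 2.87), Rtp4 (1.92, 1.46 to 2.55), Psmb9 (1.66, 1.32 to 2.09) and Ifit1 (1.62, 1.32 to 2.0), whose log2 ratio was 1.08 in place of 0.59 without the cell richest in interferon-response UMIs of each library. Isg15, Rtp4 and Psmb9 reached 20 CPM in the miR-25 mimic library alone, so they were counted only through the library where they were high. The median log2 ratio of the 20 was 0.37, and that of all genes was 0.03. In the double combination over let-7 antagomiR, 6 of 20 were higher, where 2.12% of all genes were, and 0 were lower, where 4.14% of all genes were. The 6 were Ifit1 (2.81, 2.16 to 3.69), Isg15 (2.38, 1.75 to 3.25), Rtp4 (2.13, 1.55 to 2.93), Bst2 (1.79, 1.62 to 1.98), H2-K1 (1.70, 1.62 to 1.79) and Ifitm3 (1.55, 1.46 to 1.65), and the median of the 20 was 0.29. Isg15, Bst2, Ifit1 and Rtp4 were in both, which is 4 of the 5 and 4 of the 6. The overlap over all genes was not counted, so this describes the members alone. Within the Grem1-led cluster, Bst2 stood at 193 CPM after miR-25 mimic against 114 CPM in the control, and 149 CPM was its level in the double combination, against 78.4 CPM after let-7 antagomiR. More cells with a gene and a higher level in each cell cannot be told apart from such sums alone, and the shares of cells are given below.

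Fewer members passed 1.5-fold with let-7 inhibited. After let-7 antagomiR over control, 0 of 20 members were higher, where 1.09% of all genes were, and 1 was lower, where 0.688% of all genes were. That one was Ifit1 (0.440, 0.331 to 0.583). Its log2 ratio was -0.89 with all cells and -0.37 without the cell richest in interferon-response UMIs of each library, so no member was then lower by 1.5-fold. B2m was nonetheless below the control by more than counting error (0.763, 0.745 to 0.782), as was H2-K1 (0.805, 0.762 to 0.852), whereas the interval of H2-D1 spanned 1 (0.963, 0.902 to 1.03). In the double combination over miR-25 mimic, 0 were higher, where 2.04% of all genes were, and 1 was lower, Psmb9 (0.567, 0.447 to 0.712), where 3.76% of all genes were. Psmb9 was counted only through the miR-25 mimic library, where it was high. The median log2 ratio of the 20 was -0.25 after let-7 antagomiR over control, where that of all genes was 0.01, and -0.32 in the double combination over miR-25 mimic, where that of all genes was -0.04. The double combination over control had 0 members higher, where 3.16% of all genes were, and 0 lower, where 5.10% of all genes were, with B2m at 1.13 (1.10 to 1.16) and H2-K1 at 1.37 (1.30 to 1.45). Without the richest cell of each library, Ifit1 was higher there, with a log2 ratio of 0.77 in place of 0.26.

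The libraries labelled with miR-124 had the largest differences. In the miR-124-labelled library over control, 11 of 20 members were lower, where 6.71% of all genes were, and 1 was higher, where 8.09% of all genes were. Bst2 had the lowest ratio at 0.360 (0.297 to 0.435), followed by Rtp4 at 0.395 (0.217 to 0.682), Ifitm2 at 0.420 (0.375 to 0.468), Ifitm3 at 0.423 (0.382 to 0.469), Ifit1 at 0.430 (0.286 to 0.630) and H2-D1 at 0.459 (0.412 to 0.510). The others that were lower were Isg15, B2m, H2-K1, Tap1 and Ifi27, at 0.487 to 0.632. Irf1 was the 1 that was higher (1.74, 1.33 to 2.29). Rtp4, Isg15 and Tap1 were under 20 CPM in both libraries of this contrast and were counted through other libraries. Without the cell richest in interferon-response UMIs of each library, the log2 ratio of Ifit1 was -0.37 in place of -0.91, and Ifit1 was then not among the lower members. The median of the 20 was -0.62, and that of all genes was 0.05.

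In the triple-labelled library over control, 9 of 20 were lower, where 8.86% of all genes were, and 1 was higher, where 11.1% of all genes were. Ifit1 was at 0.234 (0.164 to 0.330), Rtp4 at 0.305 (0.194 to 0.470), H2-D1 at 0.320 (0.293 to 0.349), Ifitm3 at 0.329 (0.303 to 0.356), B2m at 0.386 (0.375 to 0.398) and H2-K1 at 0.455 (0.427 to 0.485), and the others were Bst2, Usp18 and Ifitm2. Without the richest cell of each library the log2 ratio of Ifit1 was -0.90 in place of -1.42, and 10 members were lower. In the triple-labelled library over the double combination, 9 were lower, where 13.2% of all genes were, and 1 was higher, where 18.3% of all genes were, with H2-D1 at 0.243 (0.224 to 0.264) and B2m at 0.342 (0.332 to 0.351). Of the 11 members lower in the miR-124-labelled library over control, 9 were among these 9, and Irf1 was the higher one in both. These 2 contrasts share no library. Of the 9, Isg15 and Rtp4 reached 20 CPM only in the miR-25 mimic library, which is in neither contrast. Tap1 reached it only there and in the double combination. Usp18, lower in the triple-labelled library over control, reached it only after miR-25 mimic. Here too the overlap over all genes was not counted, so it is not known whether the members differ from other genes in this. In the triple-labelled library over the miR-124-labelled library, 0 were higher, where 2.92% of all genes were, and 0 were lower, where 2.02% of all genes were.

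The mix of clusters moved with those differences, and the differences within clusters were smaller. In the Grem1-led cluster, B2m stood at 1523 CPM in the miR-124-labelled library and 1218 CPM in the triple-labelled library, against 2069 CPM in the control. In the Chil1-led cluster it stood at 1812 CPM in the miR-124-labelled library and 1518 CPM in the triple-labelled library, against 2412 CPM in the control. In the Rlbp1-led cluster, which only those libraries filled, it stood at 754 CPM in the miR-124-labelled library and 651 CPM in the triple-labelled library. B2m was thus lower than in the control in each cluster they share, and lowest in the Rlbp1-led cells. The antigen presentation sum over control in the Grem1-led cluster was 0.717 (0.685 to 0.751) in the miR-124-labelled library and 0.604 (0.578 to 0.631) in the triple-labelled library. In the Chil1-led cluster it was 0.722 (0.675 to 0.772) in the miR-124-labelled library and 0.645 (0.612 to 0.681) in the triple-labelled library. Over the whole class this ratio was 0.525 (0.509 to 0.541) in the miR-124-labelled library and 0.405 (0.395 to 0.415) in the triple-labelled library. The interferon-response sum over control in the Grem1-led cluster was 0.712 (0.660 to 0.766) in the miR-124-labelled library, where the whole class had 0.541 (0.515 to 0.568). It was 0.841 (0.790 to 0.895) in the triple-labelled library, where the whole class had 0.608 (0.587 to 0.630). In the Chil1-led cluster it was 0.801 (0.724 to 0.886) in the miR-124-labelled library and 0.867 (0.803 to 0.935) in the triple-labelled library.

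Single members were less steady within clusters. Irf1 stood at 16.3 CPM in Grem1-led cells of the miR-124-labelled library and 22.9 CPM in those of the triple-labelled library, against 19.3 CPM in the control, and at 38.7 CPM in Rlbp1-led cells of the miR-124-labelled library and 33.8 CPM in those of the triple-labelled library. In Chil1-led cells it stood at 49.3 CPM in the miR-124-labelled library and 28.3 CPM in the triple-labelled library, against 18.3 CPM in the control. Its higher class level was thus seen in the Chil1-led cluster and not in the Grem1-led cluster of the miR-124-labelled library. Ifitm2 stood at 264 CPM in Grem1-led cells of the triple-labelled library, against 249 CPM in the control, and at 103 CPM in its Rlbp1-led cells. Bst2 stood at 97.0 CPM in Chil1-led cells of the triple-labelled library, against 85.3 CPM in the control, but at 79.1 CPM in its Grem1-led cells, against 114 CPM in the control. H2-D1 was lower in both clusters, at 141 CPM in Grem1-led cells of the triple-labelled library against 255 CPM in the control, and at 168 CPM in its Chil1-led cells against 340 CPM in the control.

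**Figure D3:**
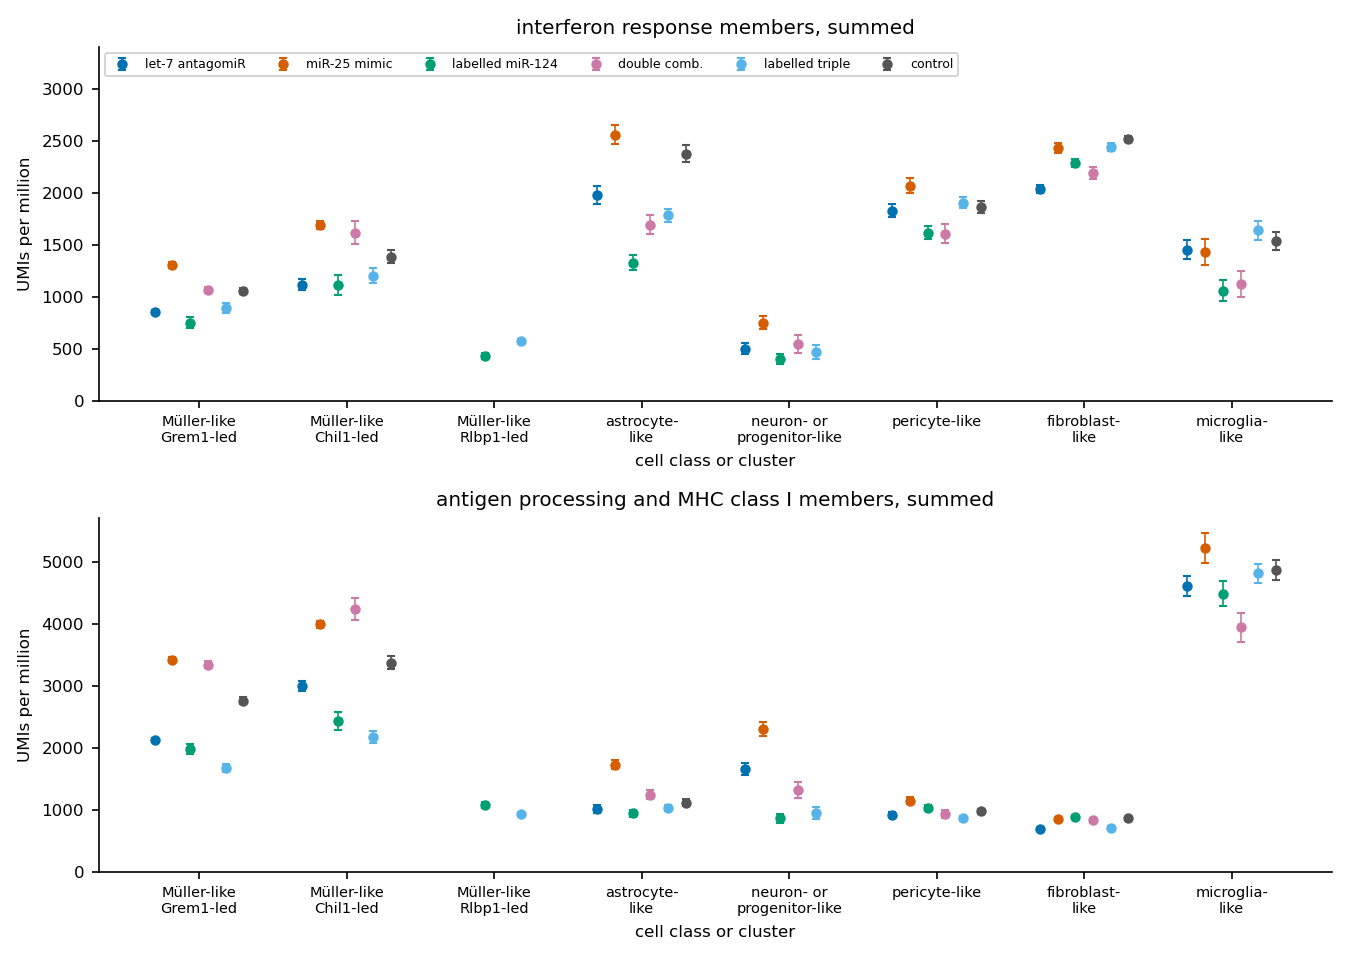
Summed CPM of the interferon-response members (top) and of the 6 antigen processing and MHC class I members (bottom) in each Müller-like cluster and cell class, with 1 point per library and 95% Poisson intervals as lines; classes of under 50 cells in a library have no point. Antigen presentation spreads between libraries in the Müller-like clusters, from 1671 to 3430 in the Grem1-led one, and lies between 685 and 887 in fibroblast-like cells.

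The other cell classes of the same libraries gave a comparison. Fibroblast- or mesenchymal-like cells had antigen presentation sums of 685 CPM after let-7 antagomiR, 852 after miR-25 mimic, 887 in the miR-124-labelled library, 829 in the double combination and 711 in the triple-labelled library, against 870 in the control. Microglia- or macrophage-like cells, the immune cells of the retina, had 4612 after let-7 antagomiR, 5232 after miR-25 mimic, 4493 in the miR-124-labelled library, 3949 in the double combination and 4821 in the triple-labelled library, against 4877 in the control. The ratio of the miR-124-labelled library to control was 1.02 (0.985 to 1.06) in fibroblast-like cells and 0.921 (0.871 to 0.974) in microglia-like cells, both closer to 1 than the 0.525 of all Müller-like cells. That 0.525 carries the difference in cluster mix, and the ratios within shared clusters given above lie nearer 1. In the triple-labelled library fibroblast-like cells stood at 711 against 870 in the control, and microglia-like cells at 4821 against 4877. Astrocyte-like cells were at 1012 after let-7 antagomiR, 1727 after miR-25 mimic, 941 in the miR-124-labelled library, 1241 in the double combination and 1027 in the triple-labelled library, against 1111 in the control, so miR-25 mimic was highest and the miR-124-labelled library lowest there, at a ratio of 0.847 (0.779 to 0.920) over control. H2-K1 in astrocyte-like cells stood at 224 CPM after miR-25 mimic, against 120 CPM in the control, and Bst2 at 283 CPM after miR-25 mimic, against 134 CPM in the control. Neuron- or progenitor-like cells, with under 50 cells in the control, had 1652 after let-7 antagomiR, 2308 after miR-25 mimic, 863 in the miR-124-labelled library, 1318 in the double combination and 946 in the triple-labelled library, with the miR-124-labelled library again lowest. Müller-like cells thus stood between microglia-like cells and the fibroblast- and pericyte-like classes in antigen presentation.

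For the interferon-response members the order of classes was another. Of the named classes, fibroblast-like cells had the highest sums in 5 of the 6 libraries, and their sums ran from 2032 to 2518 CPM, chiefly of the Ifitm genes: Ifitm3 stood at 671 to 1178 CPM and Ifitm2 at 575 to 1016 CPM there. Over all kept cells the interferon-response sum was 1763 after miR-25 mimic, against 2024 in the control, the opposite direction from Müller-like cells, in a control whose cells were 45.6% fibroblast-like. Within fibroblast-like cells it was 2430 after miR-25 mimic, against 2518 in the control. Without the Ifitm genes, Bst2 and Ifi27, the Müller-like sum was 269 after let-7 antagomiR, 454 after miR-25 mimic, 277 in the miR-124-labelled library, 343 in the double combination and 319 in the triple-labelled library, against 360 in the control. On this narrower sum let-7 antagomiR, at 269, was lowest, next to 277 in the miR-124-labelled library. Its ratio to control was 0.770 (0.713 to 0.832) in the miR-124-labelled library and 0.886 (0.837 to 0.939) in the triple-labelled library. Both ratios were closer to 1 than with those genes. They include a single control cell that held 150 of the 1956 UMIs of this set in control Müller-like cells (7.67%), which raises the control sum.

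Markers of the other classes were looked at within the Müller-like cells, since free RNA and mixed droplets can carry a gene into a class. The 13 microglia markers summed to 40.6 CPM after let-7 antagomiR, 37.3 after miR-25 mimic, 50.9 in the miR-124-labelled library, 32.7 in the double combination and 42.5 in the triple-labelled library, against 45.1 in the control, and 9 to 13 of the 13 had a UMI. In the miR-124-labelled library over control their ratio was 1.13 (0.926 to 1.37), an interval that spans 1. The 12 fibroblast markers summed to 206 CPM in the miR-124-labelled library and 270 CPM in the triple-labelled library, against 146 CPM in the control, where Lum and Pdgfra were at 0. Larger differences lay in other marker sets. The 10 pericyte or smooth muscle markers summed to 4875 CPM after let-7 antagomiR, 3675 after miR-25 mimic, 2073 in the miR-124-labelled library, 6192 in the double combination and 1188 in the triple-labelled library, against 4309 in the control. The 8 astrocyte markers summed to 1296 CPM in the miR-124-labelled library and 2113 CPM in the triple-labelled library, against 523 CPM in the control, and ran from 419 to 573 CPM in the other 3 libraries. The 8 endothelial markers summed to 1004 CPM in the miR-124-labelled library and 1429 CPM in the triple-labelled library, against 551 CPM in the control. They ran from 363 to 569 CPM in the other 3. Of these markers Cdh5 and Cldn5 were at 0 in every library. Kdr of the endothelial set and Aqp4 of the astrocyte set are also on the Müller list. Kdr and Gfap, an astrocyte marker, were among the top 10 genes of the Rlbp1-led cluster. The 8 T and B lymphocyte markers had at most 2 UMIs per library. The immediate early genes that respond to dissociation also differed: 9 of 11 were 1.5-fold higher in the miR-124-labelled library over control (8.09% of all genes), 8 of 11 in the triple-labelled library over control (11.1% of all genes), and 6 of 11 were lower in the double combination over let-7 antagomiR (4.14% of all genes). Fos, one of them, stood at 1205 CPM after let-7 antagomiR, 969 after miR-25 mimic, 1826 in the miR-124-labelled library, 636 in the double combination and 1482 in the triple-labelled library, against 851 in the control. The part of these genes and marker sets in the results was not tested.

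After each cell was thinned to 2000 UMIs, leaving out 37 to 187 shallower cells per library, B2m was seen in 90.9% of Müller-like cells after let-7 antagomiR, 96.1% after miR-25 mimic, 77.7% in the miR-124-labelled library, 95.6% in the double combination and 71.1% in the triple-labelled library, against 95.8% in the control. H2-K1 was seen in 42.1% after let-7 antagomiR, 59.0% after miR-25 mimic, 32.5% in the miR-124-labelled library, 56.8% in the double combination and 27.3% in the triple-labelled library, against 49.4% in the control. In fibroblast-like cells H2-K1 was seen in 6.24% to 11.3% of cells, well below. Most Müller-like cells of the 2 labelled libraries are in the Rlbp1-led cluster, so the shares were also taken within a shared cluster. In Grem1-led cells H2-K1 was seen in 32.7% in the miR-124-labelled library and 31.5% in the triple-labelled library, against 47.8% in the control. B2m was seen in 85.6% of Grem1-led cells in the miR-124-labelled library and 84.3% in the triple-labelled library, against 93.2% in the control. In Chil1-led cells H2-K1 was seen in 45.5% in the miR-124-labelled library and 43.7% in the triple-labelled library, against 60.9% in the control. Bst2 was seen in 28.4% of Müller-like cells after miR-25 mimic, against 18.2% in the control, and in 21.6% of fibroblast-like cells after miR-25 mimic, against 19.8% in the control. In the control the Bst2 share of Müller-like cells was below that of fibroblast-like cells, so at this level it was not set apart from free RNA.

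A narrower set, the 20 interferon-response members other than the Ifitm genes, Bst2 and Ifi27, showed how few cells can carry such genes. Its variance over mean per thinned Müller-like cell was 1.46 after let-7 antagomiR, 1.58 after miR-25 mimic, 1.20 in the miR-124-labelled library, 1.86 in the double combination and 1.05 in the triple-labelled library, against 6.4 in the control. The control value rested on 1 cell, and without each library's richest cell the values were 1.32 after let-7 antagomiR, 1.48 after miR-25 mimic, 1.17 in the miR-124-labelled library, 1.60 in the double combination and 1.03 in the triple-labelled library, against 1.12 in the control. That cell, in the Grem1-led cluster with 5025 UMIs, held 150 of the 1956 UMIs of this set in control Müller-like cells (7.67%), and the next richest held 10. It held 47 of 61 Rsad2 UMIs, 47 of 123 of Ifit1, 18 of 79 of Ifit2, 14 of 99 of Ifih1 and 9 of 79 of Ifit3. It also held all 32 UMIs of Ccl5 and 49 of 64 of Cxcl10, chemokines that infected cells secrete. It had a UMI for 14 Müller markers and 0 of the microglia markers, and it held 22 of the 11649 UMIs of B2m. Cells rich in this set were seen in other libraries and classes too, with 104 UMIs in an astrocyte-like cell of the let-7 antagomiR library and 83 in a fibroblast-like cell of the miR-124-labelled library.

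**Figure D4:**
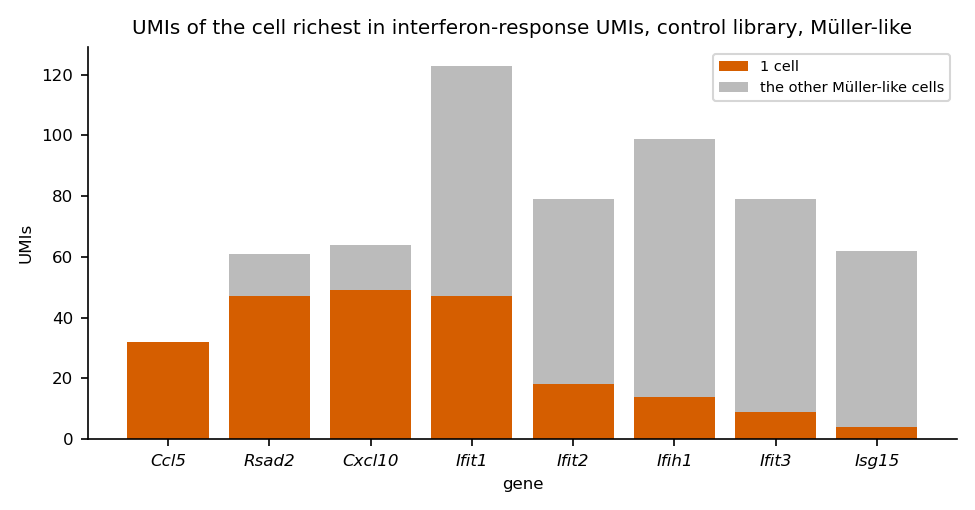
UMIs of 8 genes in Müller-like cells of the control library, split into those of the cell with the most interferon-response UMIs and those of all the other cells. The 1 cell holds all 32 Ccl5 UMIs and 47 of 61 Rsad2 UMIs but 4 of 62 Isg15 UMIs.

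The rest of the pathway was read from lists chosen for their roles. Interferons themselves had few counts: 10 UMIs of 21 ligand genes were counted over 24660 barcodes and 115256827 UMIs, and 3 of the 21 genes had any. A ligand gene with 0 counts over all barcodes allows up to 0.0260 CPM. Of the 9 receptor and kinase genes, 5 reached 20 CPM, and 3 of them were lower in the miR-124-labelled library over control (6.71% of all genes) and 1 in the triple-labelled library over control (8.86% of all genes). Ifngr2, a chain of the interferon gamma receptor, stood at 117 CPM after let-7 antagomiR, 82.7 after miR-25 mimic, 70.6 in the miR-124-labelled library, 102 in the double combination and 63.1 in the triple-labelled library, against 122 in the control. Jak1, the kinase shared by both receptors, ran from 83.8 to 100 CPM. After miR-25 mimic over control 0 of the 5 receptor and kinase genes were higher or lower by 1.5-fold, with a median log2 ratio of -0.07.

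Of 49 other interferon-stimulated genes measured, 12 reached 20 CPM. After miR-25 mimic over control 2 were higher and 0 lower, Ube2l6 (1.92, 1.51 to 2.48), an enzyme that attaches ISG15, and Gbp2 (1.71, 1.33 to 2.23), a guanylate-binding protein, and the median was 0.33. All genes had 1.45% higher and 0.955% lower there. In the double combination over let-7 antagomiR, 0 of the 12 were higher and 0 lower, with a median of 0.07. All genes had 2.12% higher and 4.14% lower in that contrast. Ube2l6 stood at 16.8 CPM in the double combination against 20.9 CPM after let-7 antagomiR, and Gbp2 at 25.4 CPM against 19.7 CPM. In the miR-124-labelled library over control 3 were lower and 0 higher, with a median of -0.24, where 6.71% of all genes were lower and 8.09% higher. Lgals3bp, a secreted glycoprotein, was lower there (0.599, 0.456 to 0.781) and in the triple-labelled library over the double combination (0.381, 0.316 to 0.459).

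Of 16 other MHC class I genes, 9 reached 20 CPM. H2-Q7, a non-classical class I gene, was 2.25 (1.58 to 3.28) after miR-25 mimic over control, at 15.7 CPM after miR-25 mimic against 7.0 CPM in the control. Tapbp, which loads peptides on class I molecules, was 0.651 (0.555 to 0.762) and Psme1, a proteasome activator subunit, 0.660 (0.552 to 0.788) in the miR-124-labelled library over control, both short of 1.5-fold on the log2 scale used. The MHC class II list had 0 of 8 genes at 20 CPM. Of 7 genes that restrain the pathway 4 reached 20 CPM, and Socs3, an inhibitor of cytokine receptor kinases, stood at 188 CPM after let-7 antagomiR, 181 after miR-25 mimic, 281 in the miR-124-labelled library, 95 in the double combination and 272 in the triple-labelled library, against 153 in the control. Among 15 NF-kB target genes, 6 reached 20 CPM. Ccl2, a chemokine for monocytes, was higher after miR-25 mimic over control (2.94, 2.47 to 3.51) and in the double combination over let-7 antagomiR (3.45, 2.99 to 3.99). Vcam1, an adhesion molecule, was lower in the miR-124-labelled library over control (0.512, 0.458 to 0.571) and in the triple-labelled library over control (0.373, 0.341 to 0.408). In the miR-124-labelled library over control 1 of the 6 was lower (6.71% of all genes) and 1 higher (8.09%), Cxcl1, at 32.8 CPM against 17.9 CPM. In the triple-labelled library over control 3 were lower (8.86%) and 0 higher (11.1%).

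Across 35 sums of a class in a library (6 classes, all libraries), the genes outside these lists most like the summed interferon-response members were Pdlim2 (Pearson r 0.885), Pold4 (0.879), Anxa2 (0.873), Anxa3 (0.872) and Rabac1 (0.871). Those most like the antigen presentation sum were Lpcat2 (0.949), Gpnmb (0.938), Sdcbp (0.932), Ucp2 (0.925) and Cxcl14 (0.900). The sums share libraries and depth and differ most between classes, so these values describe class patterns over 9783 genes.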

How the data were processed

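The deposited values are raw UMI counts for each gene in each cell barcode of 10x Genomics V2 libraries. Per the submitters' processing notes, Cell Ranger 2, Seurat 2 and the mm10 build were used; how barcodes were filtered before deposit is not stated in them. The matrix of the double combination was incomplete: 5094879 of 8637523 entries were read, so 3014 of 5141 barcodes were used. Files held 0 columns of samples without a group.

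In scanpy 1.11.5, cells were kept that had 500 or more genes and no more than 10% of UMIs from mitochondrial genes. Scrublet doublets were removed, but it marked 0.177% of cells in the control and 0.367% in the triple-labelled library, where it did not work, and 1.92% to 4.22% in the others. Clustering used 2000 variable genes, 30 principal components, 15 neighbours and Leiden resolution 0.6. A cluster was named where at least 3 markers, and a share of at least 0.4, of a class were 2-fold over the median cluster and no unrelated class had a share of 0.6 of that; this naming rule was set after seeing the data. The Chil1-, Grem1- and Rlbp1-led clusters had 14, 9 and 13 of 20 Müller markers so, and 2, 0 and 3 of them among their top 10 genes. The members were among the genes clustered.

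Counts were summed per library and class with at least 50 cells. Poisson, conditional ratio and Clopper-Pearson intervals are exact. On simulated data, 191 of 200 planted folds among 7124 genes (miR-25 mimic over control) lay inside their intervals. Sites used GENCODE vM21 3′ UTRs (GRCm38), and the adjustment of the site-gene differences was chosen after seeing the data. The members and lists were chosen with earlier results of these data known. All members are accounted for, and those at 100 CPM in a library are given in every library. Some listed genes are named by size and others for their role.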

Additional observations from a re-analysis of the deposited data

Results flagged for a closer look

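A pair of results stood out because Müller-like cells and another class of the same libraries lay on opposite sides of the control; with 1 library per treatment the difference was not tested. The interferon-response sum with miR-25 mimic over control had a log2 ratio of -0.05 in fibroblast-like cells and 0.36 in Müller-like cells. The antigen presentation sum of the double combination over control had a log2 ratio of -0.07 in fibroblast-like cells and -0.30 in microglia-like cells, where that of Müller-like cells was 0.24. The microglia-like value rests on 69 cells of the double combination and 123 cells of the control.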

How the results depend on the processing

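No paired analysis was possible because each treatment has 1 library. Of 272 counts, medians and sums recomputed, 200 kept their direction and size, and over single members and shares 2534 did, 625 moved and 17 turned. The summed antigen presentation ratios of the labelled triple combination over control (log2 -1.30) ran from -1.36 to -0.55, and the summed interferon response with miR-25 mimic over control (0.36) from -0.20 over all kept cells to 0.42. Counts of members at 1.5-fold are small and moved often. The members tested numbered 23 in the Chil1-led cluster, 19 in the Grem1-led, 15 in the Rlbp1-led, 18 over all kept cells, 23 in the cells with at least 1000 genes, 10 at 50 CPM, 30 or 31 with no filter, 18 without the 5% richest cells and 20 otherwise, so counts are not on 1 base. Over contrasts, the share of all genes higher and lower was 3.33% to 14.4% and 1.61% to 12.4% in the Chil1-led cluster, 1.29% to 8.38% and 0.901% to 7.45% in the Grem1-led, 4.13% and 2.17% in the Rlbp1-led, 1.10% to 9.12% and 1.11% to 4.18% over all kept cells, 3.62% to 21.1% and 3.98% to 13.3% with at least 1000 genes, 1.14% to 19.1% and 0.635% to 16.5% at 50 CPM, and 0.661% to 11.1% and 0.487% to 7.40% with no filter. All alternatives were planned except leaving out each library's richest cell.

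In the Chil1-led cluster, members higher and lower were 1 and 2 for let-7 antagomiR over control (3.33% and 2.32% of all genes), 3 and 4 for labelled miR-124 mimic over control (7.75% and 8.06%), 5 and 1 for double combination over control (9.50% and 12.4%), 2 and 5 for labelled triple combination over control (5.12% and 4.84%), and 3 and 3 for labelled triple over labelled miR-124 (9.77% and 8.42%). In that cluster 2 were higher for labelled triple over double (14.4%) and 3 lower for double over miR-25 mimic (10.2%). In the Grem1-led cluster, members higher and lower were 0 and 5 for labelled miR-124 over control (2.31% and 3.11% of all genes). They were 3 and 1 there for labelled triple over labelled miR-124 (4.98% and 4.14%). In that cluster 2 were higher for miR-25 over control (1.5%), 1 for double over control (3.39%) and 0 for labelled triple over double (8.38%). It had 2 lower for double over miR-25 (3.37%) and 2 for let-7 antagomiR over control (0.901%). In the Rlbp1-led cluster 2 were higher for labelled triple over labelled miR-124 (4.13% of all genes). Over all kept cells, members higher and lower were 0 and 0 for labelled miR-124 over control (3.72% and 1.11% of all genes). They were 1 and 2 for double over control (4.11% and 4.01%) and 0 and 4 for labelled triple over control (8.13% and 3%). Over those cells 9 were higher for miR-25 over control (6.91%) and 2 for double over let-7 antagomiR (1.10%). Lower were 5 for labelled triple over double (4.18%) and 1 for labelled triple over labelled miR-124 (1.34%).

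Cells with 1000 or more genes and up to 5% mitochondrial UMIs numbered 101 to 722 Müller-like per library. There, members higher and lower were 1 and 7 for let-7 antagomiR over control (7.31% and 5.09% of all genes), 4 and 3 for double over control (8.45% and 10.9%), 6 and 4 for labelled triple over labelled miR-124 (14.9% and 10.9%), 9, 2 and 4 higher for miR-25 over control (7.58%), labelled miR-124 over control (14.9%) and labelled triple over double (21.1%), and 4 lower for double over miR-25 (8.33%). Clustering without interferon genes gave 0 higher for labelled triple over control (10.3% of all genes), 3 higher for double over let-7 antagomiR (2.27%) and 4 lower for double over miR-25 (2.85%). A Grem1-led cluster of 2040 cells was left unnamed there, with 7 of 20 Müller markers. Müller-like cells of the double combination then numbered 519 in place of 1368, so other cells were compared. A filter of 50 CPM gave 0 and 7 for labelled miR-124 over control (9.04% and 7.82% of all genes), 0 and 5 for labelled triple over double (19.1% and 16.5%), 0 higher for labelled triple over control (12.1%), 1 higher for miR-25 over control (1.32%), 3 higher for double over let-7 antagomiR (2.31%), and 0 lower each for double over miR-25 (4.47%) and let-7 antagomiR over control (0.635%). Without a filter, 1 was higher for labelled triple over labelled miR-124 (2.20% of all genes) and 2 for labelled triple over double (11.1%). Then 1, 2, 2 and 3 were lower for miR-25, double and let-7 antagomiR over control and double over miR-25 (0.489%, 2.82%, 0.487% and 2.10%). A mean over cells gave 2 lower for double over miR-25 (3.47% of all genes). Median-of-ratios scaling gave 0, 1 and 3 higher for labelled triple, double and miR-25 over control (9.71%, 3.54% and 1.19% of all genes). A pseudocount of 1 CPM gave 1 higher for double over control (4.21% of all genes), 2 higher for labelled triple over double (21.1%) and 1 lower for labelled triple over labelled miR-124 (2.85%). Leaving out cells with a microglia UMI, the 4% with the highest doublet scores, or each library's richest cell gave 1 higher for double over control (3.21%, 3.15% and 3.21% of all genes). Leaving out the richest cell or the 5% richest cells gave 0 lower for let-7 antagomiR over control (0.674% and 0.758%).

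Log2 ratios that turned were, over all kept cells, Isg15 (0.25) and Rtp4 (0.01) for labelled miR-124 over control, and Isg15 (0.42) and the interferon-response sum (0.03) for labelled triple over double. In the Chil1-led cluster they were Ifit1 (0.40) and Rtp4 (0.20) for labelled miR-124 over control, Bst2 (0.18), Ifitm2 (0.01) and Rtp4 (0.05) for labelled triple over control, and Irf1 (-0.23) and Tap1 (0.28) for labelled triple over double. In the Grem1-led cluster they were Irf1 (-0.19) for labelled miR-124 and Ifitm2 (0.08) for labelled triple over control. In the cells with at least 1000 genes they were Ifit1 for let-7 antagomiR (1.21), labelled miR-124 (0.73) and labelled triple (0.08) and Isg15 (0.17) for labelled miR-124, all over control. All of these were about 1.5-fold or more with the main settings, and smaller ratios that changed sign are not in this list. Among the smaller ones, the interferon-response sum of miR-25 over control (0.36) was -0.20 over all kept cells. The antigen presentation sum of let-7 antagomiR over control (-0.34) was 0.06 in those cells. The interferon-response sum of double over control (-0.02) kept its sign in 9 of 15 alternatives. The cause was not tested. Members under 20 CPM have 3 to 705 UMIs in all, and their single ratios are not given.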
